A study of Mus musculus with 6 samples.

Results

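The nuclear-encoded subunits of the mitochondrial respiratory chain were followed in mouse macrophage-lineage cells after treatment with NETs (neutrophil extracellular traps), which are strands of chromatin with attached granule proteins cast out by neutrophils. Members were taken by symbol: the Nduf subunits of complex I, the 4 Sdh subunits of complex II, the Uqcr subunits of complex III, cytochrome c (Cycs), the Cox4 to Cox8 subunits of complex IV and the Atp5 subunits of complex V, without pseudogene rows. This gave 90 of the 55401 gene rows in the table, and 13 pseudogene rows were left out. Of the 90 members, 81 had enough reads to be tested and 9 did not. The groups were 3 NETs-treated and 3 control samples, all labelled wild type, and NETs are the only difference between them that the labels give. Every SE and adjusted p below rests on these 3 samples against 3. The cell type is labelled BMDM, bone marrow-derived macrophages, but the sample titles carry BV2, the name of a mouse microglial line, so the source of the cells is uncertain. No source used here gives the amount of NETs, the exposure time or whether samples of a group were separate cultures, so the p-values measure the sample-to-sample spread only, and this may be technical.

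The respiratory chain passes electrons from NADH (complex I) or succinate (complex II) through coenzyme Q, complex III and cytochrome c to oxygen at complex IV, and ATP synthase (complex V) uses the proton gradient that results. Complexes I, III, IV and V are built from subunits of both genomes, while all subunits of complex II are nuclear. In macrophages the chain is known to change its use of electrons during inflammatory activation, with complex I and complex II as sites of reactive oxygen production.

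Total counts ran from 39994613 to 44274445 per library, and 15272 genes were tested. Levels are CPM, the read count relative to a fixed library total, scaled between libraries by TMM, which corrects for a few genes taking up many reads. All tests are two-sided edgeR quasi-likelihood tests with Benjamini-Hochberg adjustment over the 15272 genes, and a gene is said to have risen or fallen where the adjusted p was under 0.05. Of 9 macrophage markers 8 were lower (88.9%, against 27.2% of all genes) and 1, Lyz2, was higher (11.1%, against 25.5%) in NETs-treated libraries. The median log2 fold change of these 9 was -0.55, and 4 of them passed at a change of at least 2-fold. The summed level of the 9 changed less, from 5202 to 5349 CPM in control libraries to 4991 to 5181 CPM in NETs-treated libraries. Of 8 microglial markers 6 were tested, of which 5 were lower (83.3%, against 27.2% of all genes) and 1 was higher (16.7%, against 25.5%). All 6 passed at a change of at least 2-fold, with log2 fold changes from -4.22 to 1.80. Their sums were 288 to 315 CPM in NETs-treated libraries and 723 to 749 CPM in control libraries. The median level of the 6 was 2.33 CPM, so the sums rest on a few of them. Sall1, another of the microglial markers, was at 0 in every library, which does not settle the source of the cells. Of 12 neutrophil markers 4 were tested, of which Prtn3 and Cxcr2 were lower, Mmp8 did not pass and S100a8 was higher (log2 fold change 2.12). S100a8 alone had 8.80 to 14.1 CPM in NETs-treated libraries and 2.23 to 3.35 CPM in control libraries, within sums of 10.9 to 16.8 CPM in NETs-treated libraries and 6.52 to 8.57 CPM in control libraries. The defining markers S100a9, Ly6g, Mpo and Ltf were at 0 in every library. None of the 5 fibroblast or 5 lymphocyte markers had enough reads to be tested. The part of these marker changes in the results below was not tested.

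Many nuclear respiratory chain genes are known to have binding sites for NRF1, for ETS factors such as GABPA, or for YY1 in their promoters, and promoters of members with a large change are therefore shown. Promoter windows of 250 bases before to 50 bases after the start were matched by symbol for 69 members in RefSeq (GRCm38.p6), and the 250 bases before the start are printed. Capitals mark matches, on either strand, to GCGCA and GCGC with 1 base between them (NRF1), CCGGAAG (ETS), AAGATGGC (YY1) or CAAGGTCA (ERR alpha). The 4 members were chosen after their values were seen. Uqcrh lies on chromosome 4 (minus strand, chr4:116075071-116075320), Atp5md on chromosome 19 (minus strand, chr19:47090648-47090897), Ndufs7 on chromosome 10 (plus strand, chr10:80249199-80249448) and Sdha on chromosome 13 (minus strand, chr13:74350241-74350490). The starts are those of RefSeq. In the GENCODE M21 annotation the Ndufs7 gene (chr10:80249121-80256794) covers its whole printed window. The Sdha gene (chr13:74322254-74350280) covers the last bases of its window before the start.
Uqcrh: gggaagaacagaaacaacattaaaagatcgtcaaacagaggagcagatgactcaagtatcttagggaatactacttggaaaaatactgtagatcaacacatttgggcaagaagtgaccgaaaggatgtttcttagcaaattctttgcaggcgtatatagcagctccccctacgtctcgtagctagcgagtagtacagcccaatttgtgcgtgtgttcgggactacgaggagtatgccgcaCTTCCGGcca
Atp5md: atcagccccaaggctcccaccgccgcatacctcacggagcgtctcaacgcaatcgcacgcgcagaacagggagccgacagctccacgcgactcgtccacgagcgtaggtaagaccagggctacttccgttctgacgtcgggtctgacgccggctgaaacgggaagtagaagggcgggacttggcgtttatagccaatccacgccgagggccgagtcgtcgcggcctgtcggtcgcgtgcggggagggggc
Ndufs7: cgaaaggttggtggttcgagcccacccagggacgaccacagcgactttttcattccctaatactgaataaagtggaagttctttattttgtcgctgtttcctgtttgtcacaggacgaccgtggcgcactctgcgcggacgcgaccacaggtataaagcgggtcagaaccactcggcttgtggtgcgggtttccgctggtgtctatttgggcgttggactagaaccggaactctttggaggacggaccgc
Sdha: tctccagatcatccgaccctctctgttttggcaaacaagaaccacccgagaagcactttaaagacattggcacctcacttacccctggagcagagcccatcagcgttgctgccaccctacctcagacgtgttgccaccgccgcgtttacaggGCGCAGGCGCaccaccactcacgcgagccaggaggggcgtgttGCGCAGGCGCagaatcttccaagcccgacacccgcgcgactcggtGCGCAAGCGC
The Uqcrh promoter held 1 ETS match, on the reverse strand, 10 bases before the start. The Sdha promoter held 3 NRF1 matches, whose first bases lay 98, 55 and 10 bases before the start. These letters were not found in the printed windows of Atp5md and Ndufs7. With the 50 bases after the start included, which are not printed, Atp5md held an ETS match and Ndufs7 a YY1 match.

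Over the whole window the NRF1 motif stood in 24.6% of the 69 member promoters (17), against 5.19% of the 27025 gene promoters in the table. The ETS motif stood in 24.6% of member promoters (17), against 9.93% of all. YY1 matches stood in 14.5% of member promoters (10), against 3.19% of all, and ERR alpha matches in 5.80% (4), against 1.76% of all. ETS matches were found in 9 of 19 matched members that rose, in 2 of 12 that fell and in 6 of 35 tested members that did neither. The other motifs were split differently. NRF1 matches were found in 4 of the 19 that rose, 1 of the 12 that fell and 12 of the 35 others, YY1 matches in 2 of 19, 3 of 12 and 5 of 35, and ERR alpha matches in 3 of 19, 0 of 12 and 1 of 35. These splits were not tested. The promoters of all genes were not split by rise or fall, so the member splits have no background share beside them. In the 250 bases before the start alone, a window chosen after the first counts were seen, 18.8% of members had an NRF1 match (against 4.23% of all), 17.4% an ETS match (against 7.83%) and 4.35% an ERR alpha match (against 1.51%). YY1 depended on the window: with the 50 bases after the start left out, 1 of 69 members held it (1.45%, against 1.83% of all). A match is a description of letters, not of binding.

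Of the 81 tested members, 37 passed the test (45.7%), against 52.7% of all tested genes. In NETs-treated cells 21 members were higher (25.9%, against 25.5% of all genes) and 16 were lower (19.8%, against 27.2% of all genes). Their median log2 fold change was -0.02, and that of all tested genes was -0.02. It was 0.09 after the correction for GC content. Groups did not overlap for 56.8% of members, against 62.4% of all genes. At a change of at least 2-fold, 2 of 81 members passed, Uqcrh and Cox6a2, against 19.3% of all genes. Members had a median level of 69.0 CPM and all tested genes 19.2 CPM, and members were not compared with genes of like level. The split depended on the scaling and on a correction for transcript GC content. It was 18 higher and 22 lower when libraries were scaled by their totals alone, and 27 higher and 13 lower after GC correction. The split of all tested genes, 3896 higher and 4155 lower, shifted too. It was 3351 higher and 4636 lower with library totals, and 4365 higher and 4099 lower after GC correction. The direction of the change differed by complex, as the plot of changes per member shows, but differences between complexes were not tested. In these bulk samples fewer cells of a type and less RNA per cell cannot be told apart.

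**Figure D1:**
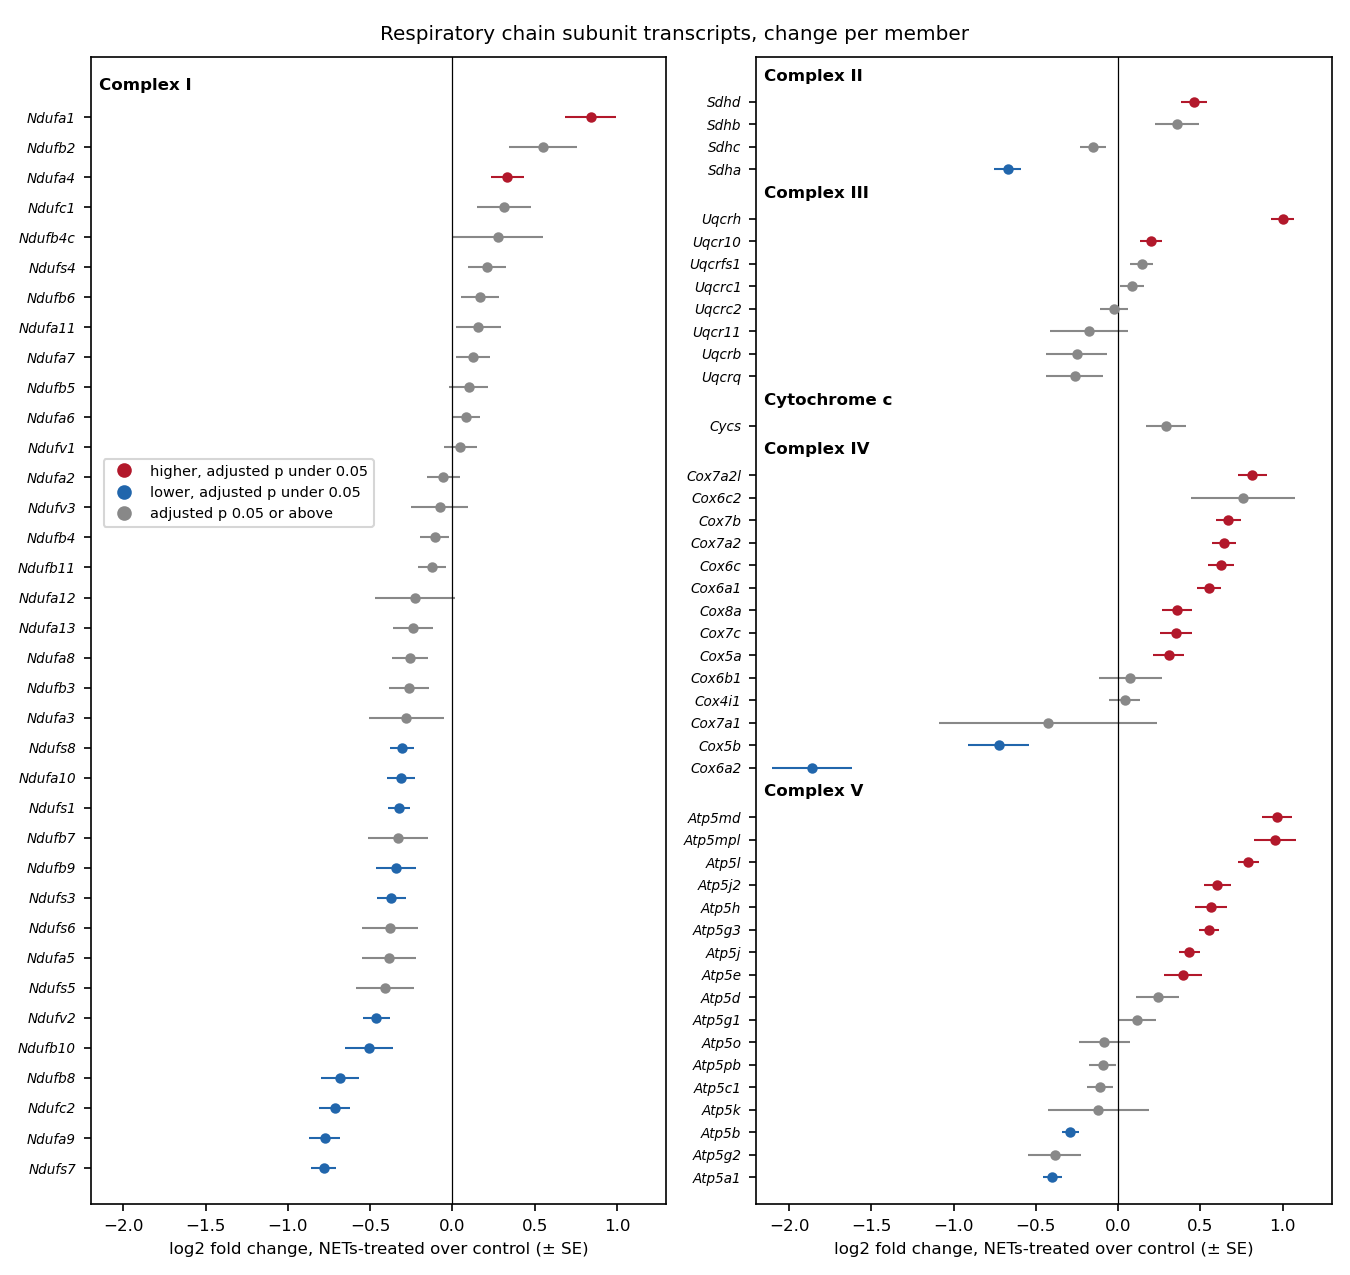
Log2 fold change (NETs-treated over control, ± SE) of 80 of the 81 tested members, by complex; red and blue points passed an adjusted p of 0.05 (higher and lower) and grey points did not. Complex I points lie mostly left of 0 (11 lower, 2 higher), and complex IV and V points mostly right of it (8 higher and 2 lower in each).

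Complex I leaned lower in that few members rose, while the share that fell was near that of all genes. Of its 37 tested members 11 fell (29.7%, against 27.2% of all genes) and 2 rose (5.41%, against 25.5% of all genes), and the median log2 fold change was -0.24. Their summed level was 1691, 1685 and 1691 CPM in NETs-treated libraries and 1979, 1865 and 1871 CPM in control libraries, so the groups did not overlap. The core subunits carry the flavin and iron-sulfur clusters and the coenzyme Q site, and accessory subunits surround them. The count of falls was 15 with scaling by library totals alone, 8 after GC correction and 8 without NETs-treated library 2. The count of rises was 5 after GC correction, and ran from 1 to 5 when single libraries were left out.

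Ndufs7, a core subunit beside the coenzyme Q site (chr10:80249121-80256794 in mm10), had 30.6, 31.3 and 33.5 CPM in NETs-treated libraries, against 56.7, 54.4 and 52.9 CPM in control libraries. Its groups did not overlap, with a change of -0.78 ± 0.08 (log2 fold change ± SE; edgeR adjusted p = 6.15e-05). Ndufa9, an accessory subunit next to that site, had 67.6, 62.3 and 54.5 CPM in NETs-treated libraries, against 110.3, 106 and 100.4 CPM in control libraries. All 3 NETs-treated values lay below every control value, and the change was -0.78 ± 0.09 (log2 fold change ± SE; edgeR adjusted p = 1.75e-04). Ndufc2, an accessory subunit of the membrane arm, had 31.3, 32.5 and 29.1 CPM in NETs-treated libraries, against 56.7, 47.4 and 48.5 CPM in control libraries. The change of Ndufc2 was -0.72 ± 0.10 (log2 fold change ± SE; edgeR adjusted p = 3.39e-04). Another membrane arm subunit, Ndufb8, had 44.7, 35.7 and 36.1 CPM in NETs-treated libraries, against 69.3, 57.7 and 60.1 CPM in control libraries. Its groups did not overlap, and the change was -0.68 ± 0.11 (log2 fold change ± SE; edgeR adjusted p = 0.00116).

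Among the other core subunits, Ndufv2 fell by 0.46 on the log2 scale (edgeR adjusted p = 0.00145), Ndufs3 by 0.37 (edgeR adjusted p = 0.00734) and Ndufs8 by 0.31 (edgeR adjusted p = 0.00823). The calls of Ndufs3 and Ndufs8 were lost after the correction for GC content, at edgeR adjusted p values of 0.0633 for Ndufs3 and 0.286 for Ndufs8. Ndufs1, the largest iron-sulfur subunit, had 161, 170.4 and 179 CPM in NETs-treated libraries, against 214, 213 and 212 CPM in control libraries. The groups did not overlap, at -0.32 ± 0.06 (log2 fold change ± SE; edgeR adjusted p = 0.00297). Ndufv1, the NADH-binding subunit, had 81.0, 83.0 and 101 CPM in NETs-treated and 91.7, 81.5 and 82.8 CPM in control libraries. It overlapped between groups and did not pass, with edgeR adjusted p = 0.718.

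The 2 rises in complex I were Ndufa1 and Ndufa4. Ndufa1, a small X-linked accessory subunit of the membrane arm, had 25.7, 34.4 and 30.6 CPM in NETs-treated libraries, against 20.1, 14.5 and 16.1 CPM in control libraries. Its change was 0.84 ± 0.15 (log2 fold change ± SE; edgeR adjusted p = 0.00198). Ndufa4, first described in complex I and now also known as a subunit of complex IV, had 41.1, 48.2 and 41.8 CPM in NETs-treated libraries, against 35.9, 36.9 and 31.2 CPM in control libraries. The change of Ndufa4 was 0.33 ± 0.10 (log2 fold change ± SE; edgeR adjusted p = 0.022). That call was lost with single libraries left out, at an edgeR adjusted p of 0.0775 without NETs-treated library 2, 0.05 without control library 1 and 0.0951 without control library 3. The calls of Ndufb10, Ndufa10 and Ndufb9 were also lost in this way. For Ndufb10 the edgeR adjusted p was 0.0634 without NETs-treated library 2, 0.0688 without control library 1 and 0.0609 without control library 2. For Ndufa10 it was 0.0594 without NETs-treated library 2 and 0.0509 without control library 2, and for Ndufb9 0.059 without NETs-treated library 1, 0.172 without NETs-treated library 2, 0.148 without control library 1 and 0.0828 without control library 3.

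In complex II the flavoprotein and one membrane anchor moved apart. Sdha, which oxidises succinate, had 161, 156 and 142 CPM in NETs-treated libraries, against 266, 239 and 226 CPM in control libraries. Every NETs-treated value lay below the control values, and the change was -0.67 ± 0.08 (log2 fold change ± SE; edgeR adjusted p = 2.18e-04). Sdhd, a membrane anchor, had 139, 134 and 153 CPM in NETs-treated libraries, against 111, 99.2 and 98.9 CPM in control libraries. It rose, at 0.46 ± 0.08 (log2 fold change ± SE; edgeR adjusted p = 0.00156). Sdhb, the iron-sulfur subunit, had 119.8, 147 and 182 CPM in NETs-treated libraries, against 117, 114 and 119 CPM in control libraries. Its groups did not overlap but it missed the threshold, at 0.36 ± 0.13 (log2 fold change ± SE; edgeR adjusted p = 0.0532), and it passed at 0.00219 without NETs-treated library 1. Sdhb also passed in 6 other alternative fits, at adjusted p values of 0.0198 to 0.0365. Sdhc, the other anchor, had 106, 115 and 125 CPM in NETs-treated and 132, 125 and 127 CPM in control libraries, with an edgeR adjusted p of 0.128, and passed as lower at 0.0377 without NETs-treated library 3.

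In complex III the largest rise was that of Uqcrh, the hinge protein that lies beside cytochrome c1 (chr4:116066965-116075071 in mm10). It had 116, 120.1 and 119.5 CPM in NETs-treated libraries, against 60.4, 55.7 and 61.8 CPM in control libraries. This was the largest rise among the tested members, 2.00-fold, at 1.00 ± 0.07 (log2 fold change ± SE; edgeR adjusted p = 1.01e-05). Uqcr10, a small subunit, had 100.4, 94.5 and 91.0 CPM in NETs-treated and 83.2, 82.5 and 83.0 CPM in control libraries, at 0.20 ± 0.07 (log2 fold change ± SE; edgeR adjusted p = 0.0362). The Uqcr10 call was lost at 0.067 without NETs-treated library 2, 0.0884 without control library 1, 0.115 without control library 2 and 0.111 without control library 3. The Rieske iron-sulfur protein Uqcrfs1 had 203, 223 and 228 CPM in NETs-treated and 203, 190.0 and 199 CPM in control libraries (edgeR adjusted p = 0.112, and 0.0208 without NETs-treated library 1). The core proteins Uqcrc1 and Uqcrc2, which with Uqcrfs1 are the 3 members of the complex with the most reads, overlapped between groups. Uqcrc1 had 227, 232 and 264 CPM in NETs-treated and 230.2, 226 and 228 CPM in control libraries (edgeR adjusted p = 0.38), and Uqcrc2 had 168, 195 and 207 CPM in NETs-treated and 189, 195 and 196 CPM in control libraries (edgeR adjusted p = 0.833). Of 8 members 2 rose (25%, against 25.5% of all genes) and none fell, but 2 fell without NETs-treated library 1. Cycs, the mobile electron carrier, had 81.1, 72.2 and 57.1 CPM in NETs-treated and 58.3, 55.9 and 57.8 CPM in control libraries. It did not pass, at 0.29 ± 0.12 (log2 fold change ± SE; edgeR adjusted p = 0.0729), but did at 0.00196 without NETs-treated library 3, and in 3 other alternative fits (adjusted p 0.032 to 0.0447).

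Complex IV leaned higher. Of its 14 tested members 8 rose (57.1%, against 25.5% of all genes) and 2 fell (14.3%, against 27.2% of all genes), and the median log2 fold change was 0.35. Their summed level was 1733, 1805 and 1804 CPM in NETs-treated libraries and 1417, 1352 and 1355 CPM in control libraries. The number of rises ran from 6 to 9 and the number of falls stayed at 2 across the alternatives run. All of these are nuclear accessory subunits, since the catalytic subunits are encoded by mitochondrial DNA.

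Cox7a2l, also known as SCAF1, which links complex III to complex IV in supercomplexes, had 272, 299.9 and 342 CPM in NETs-treated libraries, against 175, 174 and 171 CPM in control libraries. It was the largest rise in complex IV among the members that passed, at 0.82 ± 0.09 (log2 fold change ± SE; edgeR adjusted p = 9.87e-05). Cox7b had 104, 106 and 93.0 CPM in NETs-treated libraries, against 63.3, 64.4 and 63.0 CPM in control libraries. The change was 0.67 ± 0.08 (log2 fold change ± SE; edgeR adjusted p = 1.30e-04). For Cox7a2, the widely expressed Cox7a isoform, the level was 118, 130.1 and 130.0 CPM in NETs-treated libraries, against 76.5, 83.1 and 82.4 CPM in control libraries. Its change was 0.64 ± 0.07 (log2 fold change ± SE; edgeR adjusted p = 1.50e-04). Cox6c had 120.2, 125 and 141 CPM in NETs-treated libraries, against 83.4, 81.4 and 84.8 CPM in control libraries. In none of these genes did the groups overlap, and the change of Cox6c was 0.63 ± 0.08 (log2 fold change ± SE; edgeR adjusted p = 2.41e-04). Cox6a1, the widely expressed Cox6a isoform, rose at 0.55 ± 0.07 (log2 fold change ± SE; edgeR adjusted p = 3.28e-04).

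The rises of Cox8a, Cox7c and Cox5a were smaller, and their calls were lost in some fits with a library left out. Cox8a changed by 0.36 ± 0.09 (log2 fold change ± SE; edgeR adjusted p = 0.0107) and missed the threshold at 0.053 without control library 2. Cox7c changed by 0.35 ± 0.10 (log2 fold change ± SE; edgeR adjusted p = 0.0144) and missed it at 0.0636 without control library 3. Cox5a, one of the 3 members of the complex with the most reads, had 179.5, 199 and 231 CPM in NETs-treated and 167, 168 and 158 CPM in control libraries, at 0.31 ± 0.09 (log2 fold change ± SE; edgeR adjusted p = 0.0232). With a library left out, its edgeR adjusted p became 0.0553 without NETs-treated library 2, 0.0608 without control library 1, 0.0627 without control library 2 and 0.0922 without control library 3. The log2 fold change of Cox5a in these fits was 0.34, 0.32, 0.32 and 0.28, in the same order. That of Cox7c was 0.32 without control library 3, and that of Cox8a was 0.30 without control library 2. The changes thus stayed near those of the main fit where the calls were lost. Cox4i1, a regulatory subunit whose transcript had the highest level per kilobase of complex IV, had 409, 388 and 323 CPM in NETs-treated and 388, 343 and 358 CPM in control libraries. Its groups overlapped, with an edgeR adjusted p of 0.744, against 0.00507 after GC correction. Cox6b1 overlapped between groups too, with an edgeR adjusted p of 0.766, against 0.0278 without NETs-treated library 3.

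Cox5b and Cox6a2 went the other way. Cox5b had 35.3, 26.0 and 20.5 CPM in NETs-treated libraries, against 50.9, 43.3 and 41.4 CPM in control libraries. Its groups did not overlap, at -0.73 ± 0.18 (log2 fold change ± SE; edgeR adjusted p = 0.00989). Cox6a2, the heart and muscle isoform of Cox6a, had 2.00, 2.07 and 1.28 CPM in NETs-treated libraries, against 5.86, 7.01 and 6.61 CPM in control libraries. This was the largest fall among the members that passed, 3.64-fold, at -1.86 ± 0.24 (log2 fold change ± SE; edgeR adjusted p = 2.96e-04). Exons of Cox6a2 overlap Itgad on the opposite strand, and no source used here gives the strand setting of the counting, so their reads cannot be told apart. Itgad had at most 7 reads in any library.

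**Figure D2:**
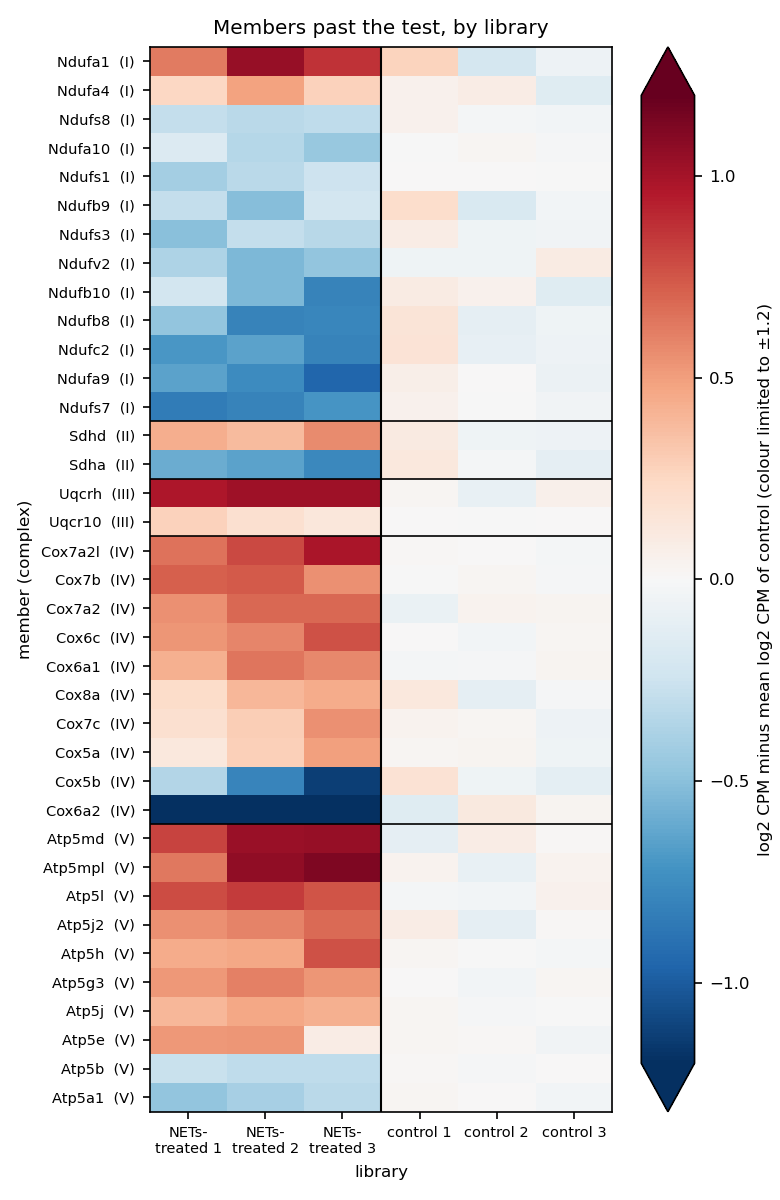
Log2 CPM minus the mean log2 CPM of the control libraries for the 37 members that passed the test, 1 column per library (3 NETs-treated, then 3 control) and 1 row per member, with the complex in brackets; colour is limited to ±1.2. In every row the 3 NETs-treated values lie on the same side of all 3 control values.

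The summed level of complex V overlapped between groups. It was 3214, 3202 and 3070 CPM in NETs-treated libraries and 3205, 3140 and 3170 CPM in control libraries. Its members moved in both directions. Of 17 tested members 8 rose (47.1%, against 25.5% of all genes) and 2 fell (11.8%, against 27.2% of all genes). The following split by part of the enzyme was made with the values known. The F1 members, which form the catalytic head and its stalk, summed to 1791, 1789 and 1746 CPM in NETs-treated libraries and 2075, 2032 and 2045 CPM in control libraries. The 12 tested members outside F1 summed to 1422, 1413 and 1324 CPM in NETs-treated libraries and 1130, 1109 and 1125 CPM in control libraries. Neither pair of groups overlapped. Of 5 F1 members 2 fell and 1 rose, and of the 12 outside F1 7 rose and none fell. The 2 that fell, Atp5b and Atp5a1, have the most reads in F1 and weigh most in its sum. Outside F1, Atp5g2 lay below every control value in each NETs-treated library but did not pass.

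Atp5b, the catalytic beta subunit and the member with the most reads, had 766, 749 and 749 CPM in NETs-treated libraries, against 931, 912 and 927 CPM in control libraries. It fell in each NETs-treated library relative to every control library, at -0.29 ± 0.05 (log2 fold change ± SE; edgeR adjusted p = 0.00134). Atp5a1, the alpha subunit, had 477, 503 and 529 CPM in NETs-treated libraries, against 674, 667 and 648 CPM in control libraries. The change was -0.40 ± 0.06 (log2 fold change ± SE; edgeR adjusted p = 6.37e-04). Atp5c1, the gamma subunit of the rotor, had 166, 183 and 193 CPM in NETs-treated and 184, 192 and 209 CPM in control libraries and did not pass (edgeR adjusted p = 0.283). Atp5e, the epsilon subunit, was the F1 member that rose, at 0.39 ± 0.12 (log2 fold change ± SE; edgeR adjusted p = 0.0193). Its edgeR adjusted p was 0.0624 without NETs-treated library 2, 0.0544 without control library 1, 0.0601 without control library 2 and 0.0723 without control library 3. Atp5d, also in F1, had 178, 149 and 124 CPM in NETs-treated and 141, 117 and 123 CPM in control libraries. Atp5d did not pass (edgeR adjusted p = 0.154). It passed as higher at edgeR adjusted p values of 3.14e-04 after GC correction, 0.0497 after length correction and 0.0156 without NETs-treated library 3.

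Outside F1, Atp5md, which encodes the small membrane protein DAPIT (chr19:47083464-47090647 in mm10), had 139, 163 and 164 CPM in NETs-treated libraries, against 73.9, 84.5 and 80.4 CPM in control libraries. It rose, at 0.97 ± 0.09 (log2 fold change ± SE; edgeR adjusted p = 4.47e-05). Atp5mpl, another small membrane protein of the enzyme, had 88.1, 119 and 124 CPM in NETs-treated libraries, against 58.6, 53.7 and 58.8 CPM in control libraries. The change of Atp5mpl was 0.95 ± 0.13 (log2 fold change ± SE; edgeR adjusted p = 3.33e-04). Subunit g, Atp5l, had 154, 161 and 151 CPM in NETs-treated libraries, against 88.4, 87.9 and 93.0 CPM in control libraries. Its groups did not overlap, at 0.79 ± 0.07 (log2 fold change ± SE; edgeR adjusted p = 2.28e-05). Subunit f, Atp5j2, had 51.1, 52.7 and 56.0 CPM in NETs-treated libraries, against 37.2, 32.6 and 35.4 CPM in control libraries. The change of Atp5j2 was 0.60 ± 0.08 (log2 fold change ± SE; edgeR adjusted p = 3.91e-04). Subunit e, Atp5k, which works with subunit g in dimers of the enzyme, spread widely, at 22.8, 14.5 and 8.17 CPM in NETs-treated and 15.9, 16.1 and 17.5 CPM in control libraries, and did not pass (edgeR adjusted p = 0.764).

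In the peripheral stalk, which holds the head still, Atp5h rose at 0.57 ± 0.10 (log2 fold change ± SE; edgeR adjusted p = 0.0013) and Atp5j at 0.43 ± 0.06 (log2 fold change ± SE; edgeR adjusted p = 6.00e-04). Atp5pb, subunit b of the stalk and among the 3 members of the complex with the most reads, had 207, 181 and 172 CPM in NETs-treated and 202, 194 and 201 CPM in control libraries (edgeR adjusted p = 0.354). Atp5o, which joins the stalk to the head, had 151, 136 and 93.4 CPM in NETs-treated and 140.2, 134 and 129 CPM in control libraries (edgeR adjusted p = 0.673).

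**Figure D3:**
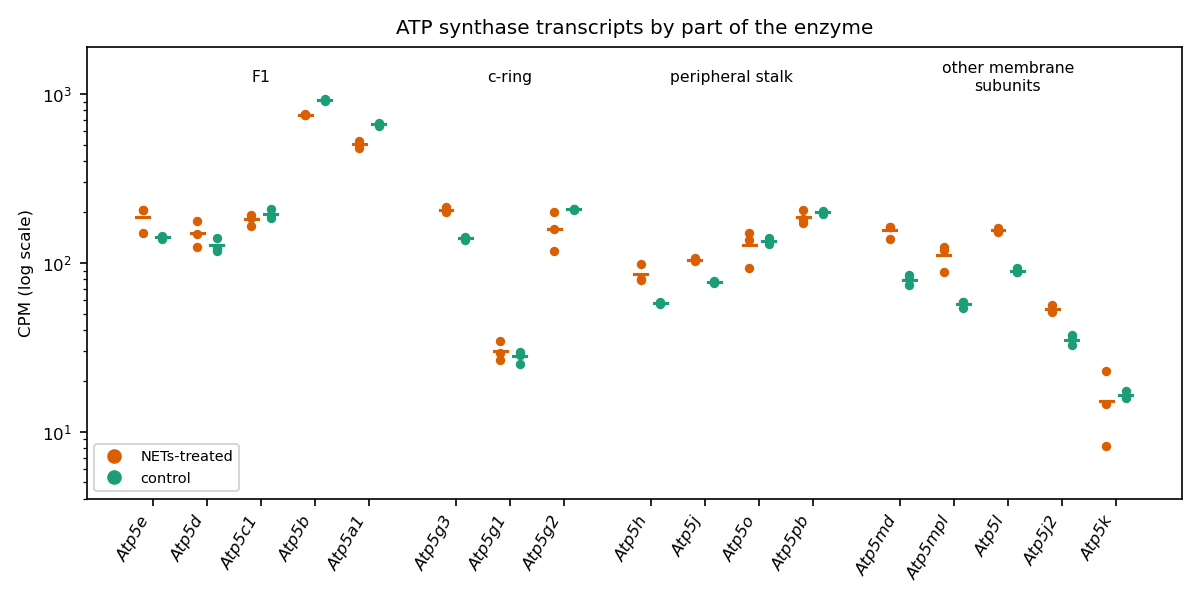
CPM (log axis) of the 17 tested complex V members in each library, by part of the enzyme; dots are libraries, bars are group means, and NETs-treated values stand left of control values. The NETs-treated values of Atp5b and Atp5a1 lie below the control values, and those of Atp5md, Atp5mpl, Atp5l and Atp5j2 lie above them.

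Within isoform families, shares were taken from CPM per kilobase of the principal transcript. The rotor c-ring is made from 3 genes that encode the same mature protein. Of their summed level Atp5g3 held 50.1%, 57.3% and 62.9% in NETs-treated libraries and 40.3%, 40.1% and 40.8% in control libraries. Atp5g2 held 48.8%, 41.6% and 35.5% in NETs-treated libraries and 58.5%, 58.5% and 58.1% in control libraries. Atp5g1 held at most 1.62% in any library. That share rests on a principal transcript of 4715 bases for Atp5g1, against 714 for Atp5g3 and 731 for Atp5g2. Without division by length, Atp5g1 had 29.4, 26.6 and 34.4 CPM in NETs-treated and 28.5, 29.7 and 25.3 CPM in control libraries. Atp5g3 rose, at 0.55 ± 0.06 (log2 fold change ± SE; edgeR adjusted p = 1.21e-04). Atp5g2 did not pass, at -0.39 ± 0.16 (log2 fold change ± SE; edgeR adjusted p = 0.0772), but did at 0.003 without NETs-treated library 1. Atp5g2 also passed with library totals, the DESeq2 Wald test, the replicate block, the length correction and in the authors' deposited table, at adjusted p values of 0.0187 to 0.0442. Of the Cox6a pair, Cox6a2 held 0.775% ± 0.207 in NETs-treated and 3.98% ± 0.326 in control libraries (SD, n = 3 each). Of the Cox7a family, Cox7a2l held 58.1%, 58.4% and 61.6% in NETs-treated libraries and 57.7%, 55.9% and 55.4% in control libraries, and Cox7a1, the muscle isoform, had at most 1.36 CPM in any library. Levels of Ndufb4c and Cox6c2, near-copies of Ndufb4 and Cox6c, are uncertain because reads may be split between the copies. Exons overlap another gene on the opposite strand in 27 members, 10 of which passed the test: Ndufs1, Ndufs3, Ndufa9, Cox6c, Cox5a, Cox6a2, Atp5md, Atp5l, Atp5j and Atp5a1. On the same strand they overlap in 6 members, among which Ndufb8 and Ndufb9 passed, and reads of such pairs may be mixed.

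The 9 members that were not tested are mostly isoforms known from other tissues or conditions. Cox7b2, Cox8b, Cox8c and a second Atp5o row were at 0 in every library, where 0 counts allow up to 0.0687 to 0.0750 CPM per NETs-treated library and 0.0678 to 0.0717 CPM per control library. The limits cover counting error only. Cox4i2, the hypoxia and lung isoform of Cox4, had 48 counts over all 6 libraries, and Ndufa4l2 16, Ndufs6b 18, Cox6b2 5 and Ndufa11b 3. All 37 rows of the mitochondrial chromosome, the 13 subunit genes mt-Nd1, mt-Nd2, mt-Nd3, mt-Nd4, mt-Nd4l, mt-Nd5, mt-Nd6, mt-Cytb, mt-Co1, mt-Co2, mt-Co3, mt-Atp6 and mt-Atp8 among them, are listed at 0 in every library. The mitochondrially encoded part of the chain therefore could not be compared with the nuclear one.

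Members spread more between NETs-treated than between control libraries. Over the 81 members, log2 CPM had a median SD of 0.17 in NETs-treated and 0.07 in control libraries, against 0.18 in NETs-treated and 0.11 in control libraries over all tested genes. Between NETs-treated libraries 3 and 1, 19 members were lower and 3 were higher by at least 0.5 (log2), which is 23.5% and 3.70% of members, against 12.8% and 9.15% of all tested genes. Between control libraries 3 and 1 it was 1 member in either direction (1.23%, against 9.30% of all tested genes). Between the NETs-treated libraries Atp5k had the lowest difference, -1.43, and Ndufb2 the highest, 0.94. Across members the difference between NETs-treated libraries 3 and 1 had a Spearman rho of -0.34 with transcript GC content (81 genes from the same libraries), and across all tested genes with a GC value -0.42. Members that fell had a median transcript length of 1014.5 bases and those that rose 571 bases, with a median GC content of 51.9% in those that fell and 49.9% in those that rose. Over all tested genes those that fell had a median length of 2774.5 bases and those that rose 2976 bases, and a median GC content of 51.0% in those that fell and 48.5% in those that rose. With GC content corrected, complex I had 8 falls and 5 rises and complex V 2 falls and 9 rises. Of the 37 calls 26 held in all 17 alternative fits, 15 of them higher and 11 lower. The length correction ended the calls of Ndufa10, Uqcr10, Cox7c, Cox5a and Atp5e, and library totals those of Ndufa4, Uqcr10 and Cox5a. The GC correction ended those of Ndufs3, Ndufs8 and Ndufb9.

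**Figure D4:**
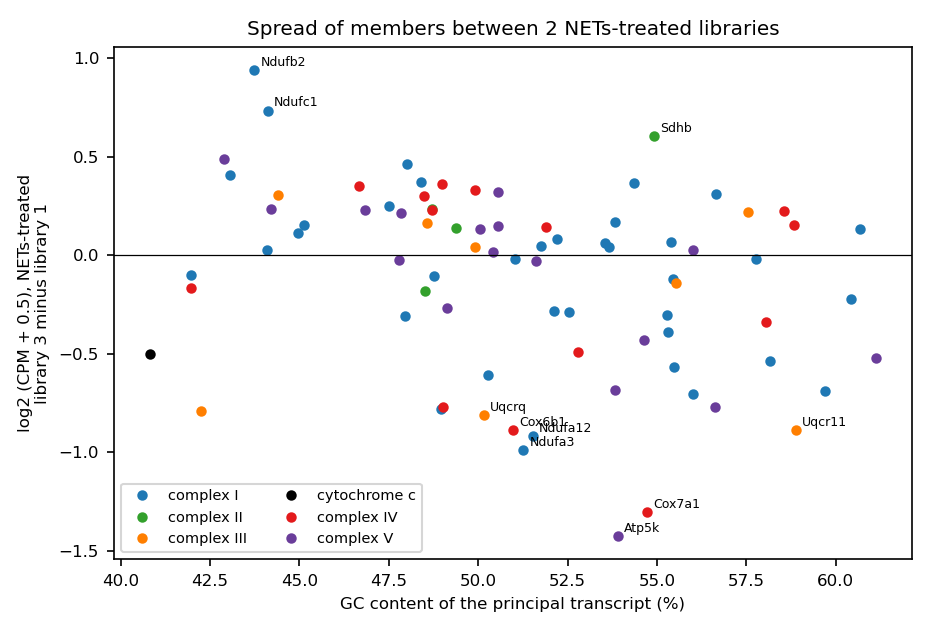
Difference in log2 (CPM + 0.5) between NETs-treated libraries 3 and 1 against the GC content (%) of the principal transcript, 1 point per tested member, coloured by complex. Points run from Ndufb2 at 0.94 to Atp5k at -1.43, and members of higher GC content tend to lie lower (Spearman rho -0.34).

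Genes that build or feed the chain were mixed. Of 51 assembly factors 12 rose (23.5%, against 25.5% of all genes) and 13 fell (25.5%, against 27.2% of all genes), with a median log2 fold change of -0.04. Of the 22 for complex IV 6 rose (27.3%) and 4 fell (18.2%). Coa5 had 187, 200.0 and 229.9 CPM in NETs-treated libraries, against 94.8, 90.9 and 101 CPM in control libraries, at 1.11 ± 0.09 (log2 fold change ± SE; edgeR adjusted p = 2.20e-05). Cox17, the copper chaperone of complex IV, had 102, 105 and 98.4 CPM in NETs-treated libraries, against 45.9, 47.5 and 48.6 CPM in control libraries. It rose at 1.11 ± 0.07 (log2 fold change ± SE; edgeR adjusted p = 4.91e-06). Coa3 fell, at -0.87 ± 0.13 (log2 fold change ± SE; edgeR adjusted p = 6.99e-04), and so did Cox10, which makes heme A for complex IV with Cox15, at -0.74 ± 0.17 (log2 fold change ± SE; edgeR adjusted p = 0.00671). Cox20 passed at 0.97 ± 0.35 (log2 fold change ± SE; edgeR adjusted p = 0.045), with control values from 2.30 to 7.29 CPM, but the call was lost at edgeR adjusted p values of 0.0721 without NETs-treated library 1, 0.0828 without NETs-treated library 2, 0.0633 without NETs-treated library 3 and 0.0974 without control library 3. Of the 6 factors for complex III 5 fell (83.3%) and 1 rose (16.7%). Lyrm7, a chaperone of the Rieske protein, fell at -1.75 ± 0.39 (log2 fold change ± SE; edgeR adjusted p = 0.00539), and Uqcc1 rose at 0.32 ± 0.08 (log2 fold change ± SE; edgeR adjusted p = 0.00943). Of the 16 for complex I 3 fell (18.8%) and 2 rose (12.5%). Nubpl, which delivers iron-sulfur clusters to complex I, had 8.04, 8.80 and 8.58 CPM in NETs-treated and 26.3, 20.9 and 26.0 CPM in control libraries, at -1.53 ± 0.13 (log2 fold change ± SE; edgeR adjusted p = 2.49e-05). Tmem126b rose at 0.76 ± 0.14 (log2 fold change ± SE; edgeR adjusted p = 0.00208).

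Of 4 subunits and regulators outside the symbol rule 1 rose (25%, against 25.5% of all genes) and 2 fell (50%, against 27.2% of all genes). Ndufab1, the acyl carrier protein of complex I, changed by 0.19 ± 0.06 (log2 fold change ± SE; edgeR adjusted p = 0.0325), and missed the threshold at edgeR adjusted p values of 0.0861 without NETs-treated library 2, 0.096 without control library 1, 0.082 without control library 2 and 0.11 without control library 3. Atpif1, the inhibitor of ATP synthase, changed by -0.42 ± 0.15 (log2 fold change ± SE; edgeR adjusted p = 0.0371), and missed it at 0.082 without NETs-treated library 2, 0.107 without control library 1, 0.0688 without control library 2 and 0.0936 without control library 3. Dmac2l fell at -1.46 ± 0.21 (log2 fold change ± SE; edgeR adjusted p = 5.43e-04). Cyc1, cytochrome c1, had 130.2, 127 and 127 CPM in NETs-treated and 132, 129.6 and 122 CPM in control libraries (edgeR adjusted p = 0.967, and 0.0355 after GC correction).

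Of 13 genes of coenzyme Q synthesis 7 fell (53.8%, against 27.2% of all genes) and 2 rose (15.4%, against 25.5% of all genes), with a median log2 fold change of -0.56. Without control library 1 the rises came to 1. Coq10b, a coenzyme Q-binding protein, had 83.9, 99.7 and 114 CPM in NETs-treated libraries, against 17.0, 19.2 and 16.0 CPM in control libraries. It rose at 2.51 ± 0.13 (log2 fold change ± SE; edgeR adjusted p = 1.87e-06). Coq3, an O-methyltransferase of the pathway, fell at -1.66 ± 0.21 (log2 fold change ± SE; edgeR adjusted p = 2.68e-04), and Coq2, which attaches the side chain, at -0.91 ± 0.09 (log2 fold change ± SE; edgeR adjusted p = 7.54e-05). Of 9 tested genes of other electron entry or uncoupling 6 fell (66.7%) and 1 rose (11.1%). Ucp2, an inner membrane carrier, had 158, 167 and 151 CPM in NETs-treated libraries, against 319, 307 and 318 CPM in control libraries, at -0.99 ± 0.06 (log2 fold change ± SE; edgeR adjusted p = 6.26e-06). Of 13 genes of the TCA cycle, which supplies the electrons, 4 rose and 4 fell (30.8% each). Dlst, of the oxoglutarate dehydrogenase complex, rose at 0.54 ± 0.06 (log2 fold change ± SE; edgeR adjusted p = 9.70e-05), and Suclg2, of succinyl-CoA ligase, fell at -0.80 ± 0.09 (log2 fold change ± SE; edgeR adjusted p = 9.59e-05).

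Of 14 tested regulators of mitochondrial biogenesis 3 rose and 3 fell (21.4% each, against 25.5% higher and 27.2% lower of all genes). Ppargc1b, a coactivator of nuclear mitochondrial genes, had 21.2, 17.9 and 15.3 CPM in NETs-treated libraries, against 11.2, 7.68 and 9.52 CPM in control libraries, at 0.94 ± 0.18 (log2 fold change ± SE; edgeR adjusted p = 0.00238). Yy1 rose at 0.59 ± 0.08 (log2 fold change ± SE; edgeR adjusted p = 5.09e-04) and Tefm, an elongation factor of mitochondrial transcription, fell at -0.88 ± 0.14 (log2 fold change ± SE; edgeR adjusted p = 0.00106). Nrf1, Gabpa, Tfam and Esrra did not pass, at edgeR adjusted p values of 0.959, 0.724, 0.831 and 0.0769. Esrra passed at 0.0381 without NETs-treated library 3 and 0.0189 without control library 1, and in 3 other alternative fits (adjusted p 0.0233 to 0.0463). Of 78 mitochondrial ribosomal proteins 16 rose (20.5%) and 23 fell (29.5%), and 10 rose without control library 3. Of 85 tested cytosolic ribosomal proteins 44 rose (51.8%, against 25.5% of all genes) and none fell, but 10 fell without NETs-treated library 1. Their median log2 fold change was 0.23.

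**Figure D5:**
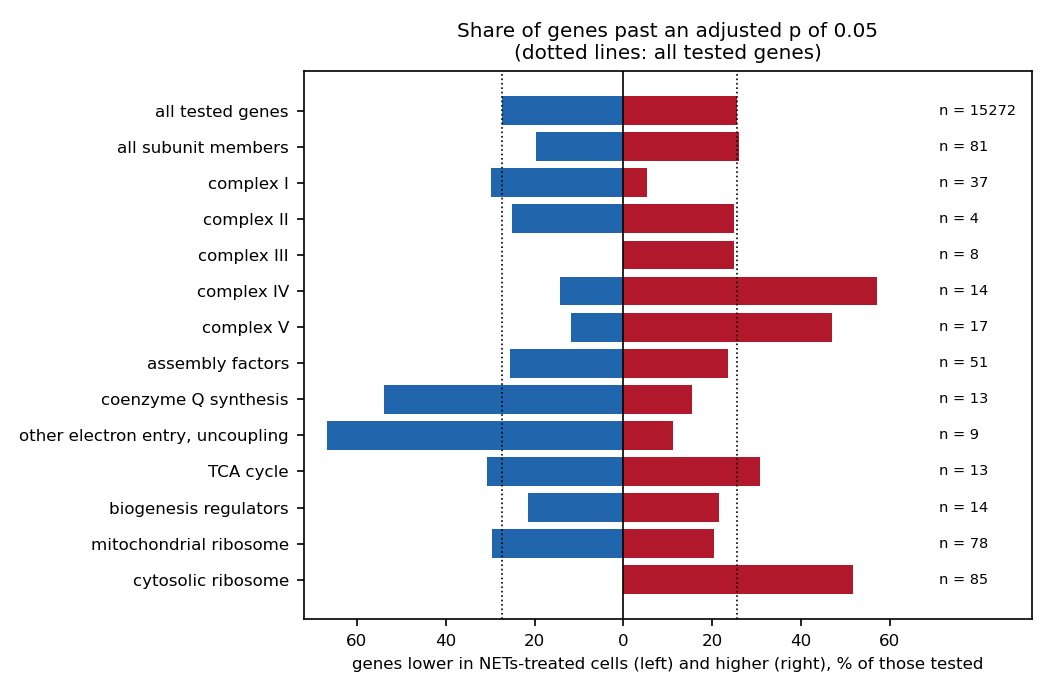
Share (%) of tested genes of each group that were higher (red, right) or lower (blue, left) in NETs-treated cells at an adjusted p under 0.05; dotted lines mark all 15272 tested genes. Complex I reaches 29.7% lower and 5.41% higher, complex IV 57.1% higher and complex V 47.1% higher, beside 25.5% higher and 27.2% lower of all genes.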

How the data were processed

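Per the labels' protocols, libraries from total RNA kept the strand. HISAT2 and DESeq2, with the builds rn6 and mm10, are named in the submitters' processing notes, with no version or role. No source used here gives the counting program or its strand setting. The authors deposited raw read counts per gene, per the file headers, and a normalised signal, which on a check of the values was the count over a per-sample size factor. The same deposited table holds the authors' log2 fold changes and their p-values.

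Samples were grouped by the treatment in the labels. Libraries of 1 group differed by more than sampling noise (chi-square per gene 9.77 to 77.2), so each counted as 1 sample. Raw counts were tested in R 4.3.3 with edgeR 4.0.16 (quasi-likelihood test, TMM, no covariates), after the edgeR filter on low counts (minimum count 10, minimum total 15), with Benjamini-Hochberg adjustment over 15272 genes, which held 99.9% of counts. The biological coefficient of variation was 18.5%. The SE of a log2 fold change came from its F statistic. The script was tested on simulated data. PCR duplicates were not identified by molecular tags, so limits from counts cover counting error only.

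Members and lists were chosen with earlier results of these data known. Named in each complex were called members with an absolute log2 fold change of at least 0.58, the 3 with the most reads, up to 3 called against the majority, members with isoforms, and up to 3 rises and 3 falls of each context list, of which the text gives those that matter most. A member of complex I is not reported here by name. Smaller changes are named in passing, chosen after their values were seen. Gene coordinates, transcript length and GC content came from GENCODE M21 (mm10), which matched 54349 of 55401 identifiers and all 90 members. Alternatives were the size factors of DESeq2 1.42.0, library totals, upper-quartile scaling, the DESeq2 Wald test, limma-voom (limma 3.58.1), no filter, a filter of 1 CPM in 3 samples, a replicate block, leaving out each library, the authors' deposited table, and lowess corrections (span 0.3) for GC content and length.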

Additional observations from a re-analysis of the deposited data

How the results depend on the processing

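Member calls kept their direction in every alternative run. The counts of higher and lower members, 21 and 16, stayed within 1.5 times, at 16 to 27 and 13 to 20 with a library left out. Complex I had 2 rises, against 1 with library totals alone, 5 after GC correction, 1 with Ndufa4 counted in complex IV and 1 to 5 with a library left out. Complex II had 1 rise, against 2 with the DESeq2 Wald test, the filter of 1 CPM in 3 samples, the replicate block, the authors' deposited table, GC correction and length correction, and 1 to 2 with a library left out. Its 1 fall became 2 with library totals, and 1 to 2 with a library left out. Complex III had 2 rises, against 1 with library totals and 1 to 3 with a library left out, and no fall, against 0 to 2 with a library left out. Of the 4 subunits and regulators outside the symbol rule, 1 rose and 2 fell, against 0 rises with library totals, 2 rises after GC correction, 1 fall with no filter on low counts, and 0 to 1 rises and 1 to 2 falls with a library left out. Regulators of biogenesis had 3 rises, against 5 with the DESeq2 Wald test, 6 with the filter of 1 CPM and 5 after length correction. Rises of coenzyme Q genes were 1 to 2 and of mitochondrial ribosomal proteins 10 to 17 with a library left out. Cytosolic ribosomal proteins had 0 falls, against 1 with library totals, the DESeq2 Wald test and the authors' deposited table, 4 with the replicate block and 0 to 10 with a library left out. The cause of these shifts was not tested.

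The median log2 fold change of all members, -0.02, was -0.10 with library totals, 0.0912 after GC correction, 0.0276 after length correction and -0.0245 to 0.0307 with a library left out. That of complex I, -0.24, was -0.32, -0.10 and -0.14 in the same 3 fits and -0.28 to -0.12 with a library left out. That of complex III, 0.03, was -0.0460 with library totals, 0.0874 after GC correction and 0.0255 to 0.1122 with a library left out. That of complex V, 0.24, was 0.48 after GC correction, 0.1549 without NETs-treated library 1 and 0.3717 without NETs-treated library 3, its range with a library left out. Library totals moved the median of all genes to -0.09. The YY1 share of promoters was 1.45% before the start only, a window chosen after seeing the data.

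Same-numbered samples correlated at 0.12, 0.03 and 0.07, and differently numbered samples at -0.09 to 0.03. Each same-numbered value was the highest for its samples. The main fit did not pair the samples, so it leaves out any weak pairing. With the replicate block, 22 members were higher and 18 lower, and 3896 and 4209 genes of the whole table. At this depth 9 members had too few reads to be tested.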
